A study of Mus musculus with 24 samples.

Results

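Gm3608, Gm10693, 1500015A07Rik and Klk1 were 4 of the 54752 genes in the table of bone marrow RNA, selected on their TPM (transcript abundance scaled to the same total in every library) being higher in Nrf2-KO than in WT mice on the ground and again after spaceflight, and because they lie outside a cluster of such genes on chromosome 14. They were identified by Ensembl gene ID in GENCODE M21. All 4 passed the filter, a TPM above 1 in any library, and so were among the 12373 genes tested. The values that selected them are described without a test.

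The study asked how loss of the transcription factor Nrf2 changes the response of male C57BL/6 mice to spaceflight. The libraries cover 24 mice, 1 library per mouse, with 6 wild-type mice kept on the ground (GC-WT), 6 wild-type mice flown to the space station for 31 days (FL-WT), 6 Nrf2-KO mice kept on the ground (GC-KO) and 6 Nrf2-KO mice flown for the same time (FL-KO). All were housed singly, the knockout was of the whole body, and ages are not given in the labels. The authors took marrow cells from the right pelvis and tibia, froze them and extracted total RNA without sorting. Flown mice were sampled after landing, and the paper states that flown and ground mice could not be sampled in the same place. Time in space, the return and the place of sampling thus cannot be told apart. Below, "in flight" refers to the flown mice.

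Nrf2, encoded by Nfe2l2, is released from Keap1 under oxidative or electrophilic stress, enters the nucleus, pairs with a small Maf protein and activates detoxifying and antioxidant genes through antioxidant response elements (AREs). Genes that are higher without Nrf2 are not the usual targets of this activation. The 4 genes are of different kinds. Klk1 encodes tissue kallikrein, a secreted serine protease that cuts kininogens to release kinins, which dilate vessels. Gm3608 is annotated as a pseudogene, Gm10693 as a transcribed unprocessed pseudogene among the genes of paired immunoglobulin-like receptors (PIR) of leukocytes, and 1500015A07Rik as an antisense RNA.

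The files give no read counts, so the depth of the libraries, and with it the counting error, is unknown. Each library summed to between 999999.5 and 1000001.1 TPM. Nfe2l2 was at 17.05 to 26.06 TPM in GC-WT and 11.39 to 27.26 TPM in FL-WT mice, against 3.6 to 7.18 TPM in GC-KO and 2.22 to 4.31 TPM in FL-KO mice, so every library followed its genotype label. Over all tested genes the median of the log2 fold changes was below 0, at -0.22 between genotypes on the ground, -0.25 between genotypes in flight, -0.24 for flight vs. ground in WT mice and -0.29 for the same in Nrf2-KO mice. When libraries were rescaled by the median of ratios, the same medians were 0.0036 to 0.034. All fold changes below are differences of log2(TPM + 1), which are smaller than ratios of TPM for genes at a few TPM.

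Gm3608 (ENSMUSG00000067017.5, chr1:105455971-105458829, plus strand, GRCm38) has a single annotated transcript of 2858 nt. It aligned over its whole length to the transcript of Capza1 (ENSMUSG00000070372.11, chr3:104822779-104864505, minus strand), the alpha-1 subunit of the protein that caps actin filaments, with an identity of 99.5%. The alignment held 8 single-base substitutions and 5 inserted or missing bases. Of the substitutions, 3 lay in the coding part of Capza1, and Gm3608 also lacks 1 base there. They are shown because they are the few positions of the coding part at which a read could differ between both genes. The first is C555T, the second G676A and the third G772A, counted from 1 at the 5′ end of the Gm3608 transcript, with the base of Gm3608 before the number and that of Capza1 after it. Each window of 61 bases is given with the differing base in capitals.
Gm3608 at 555: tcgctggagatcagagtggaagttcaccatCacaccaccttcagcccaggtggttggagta
Capza1 at 555: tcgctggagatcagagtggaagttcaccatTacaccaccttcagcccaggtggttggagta
Gm3608 at 676: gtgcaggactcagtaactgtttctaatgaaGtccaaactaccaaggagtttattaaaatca
Capza1 at 676: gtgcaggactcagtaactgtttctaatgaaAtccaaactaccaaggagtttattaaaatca
Gm3608 at 772: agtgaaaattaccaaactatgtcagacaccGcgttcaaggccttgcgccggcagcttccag
Capza1 at 772: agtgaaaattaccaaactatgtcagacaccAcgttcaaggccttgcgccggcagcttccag
Between these positions the sequences run without a difference, and 82.1% of the 50-base words and 67.9% of the 100-base words of Gm3608 also occur in Capza1. The values of Gm3608 and Capza1 are therefore uncertain where the authors' counting had to divide reads between them.

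Klk1 (ENSMUSG00000063903.5, chr7:44225360-44229618, plus strand) was the only protein-coding gene of the 4. Of the 4 genes, Klk1 had an entry among the RefSeq promoters of GRCm38.p6, and its 250 bases before the gene start are given below with those of Klk1b27 (ENSMUSG00000063177.6, chr7:44052290-44056712, plus strand), a kallikrein of the same cluster whose values followed the same pattern. The capitals mark the core of the ARE, TGACNNNGC, searched on both strands.
Klk1, chr7:44225110-44225359, plus strand: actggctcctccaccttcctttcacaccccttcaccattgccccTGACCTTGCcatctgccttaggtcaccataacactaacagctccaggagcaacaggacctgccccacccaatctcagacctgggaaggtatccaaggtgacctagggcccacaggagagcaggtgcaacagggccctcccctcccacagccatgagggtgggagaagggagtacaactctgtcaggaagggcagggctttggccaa
Klk1b27, chr7:44052040-44052289, plus strand: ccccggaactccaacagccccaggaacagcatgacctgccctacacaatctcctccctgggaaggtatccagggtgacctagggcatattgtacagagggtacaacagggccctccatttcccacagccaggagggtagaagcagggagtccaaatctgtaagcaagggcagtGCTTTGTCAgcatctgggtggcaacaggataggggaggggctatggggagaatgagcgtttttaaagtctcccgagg
The match in Klk1 began 206 bases before the gene start on the plus strand, and that in Klk1b27 began 77 bases before it on the minus strand, so the matches are not at the same place in both promoters. Of 32851 RefSeq promoters, 3338 (10.2%) held this core in the 250 bases before the gene start, the stretch searched for both genes. A match of these letters is a description and not a site bound by Nrf2.

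Gm3608 was the most abundant of the 4 genes in Nrf2-KO mice. It lay between 0.6 and 1.09 TPM in GC-WT mice, with a median of 0.815, and between 0.6 and 1.38 TPM in FL-WT mice, with a median of 0.925. In GC-KO mice it lay between 31.77 and 49.11 TPM, with a median of 37.9, and in FL-KO mice between 30.4 and 44.46 TPM, with a median of 37.5. The lowest GC-KO mouse was 29.1 times the highest GC-WT mouse, and the lowest FL-KO mouse was 22 times the highest FL-WT mouse. As in all bulk RNA, more cells of a type and more RNA per cell cannot be told apart in these values. The means were 0.85 ± 0.186 TPM in GC-WT, 0.94 ± 0.267 TPM in FL-WT, 38.3 ± 6.45 TPM in GC-KO and 37.6 ± 6.14 TPM in FL-KO mice (± SD of n = 6). The log2 fold change of Nrf2-KO against WT was 4.40 (SE 0.12) on the ground and 4.31 (SE 0.12) in flight.

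**Figure D1:**
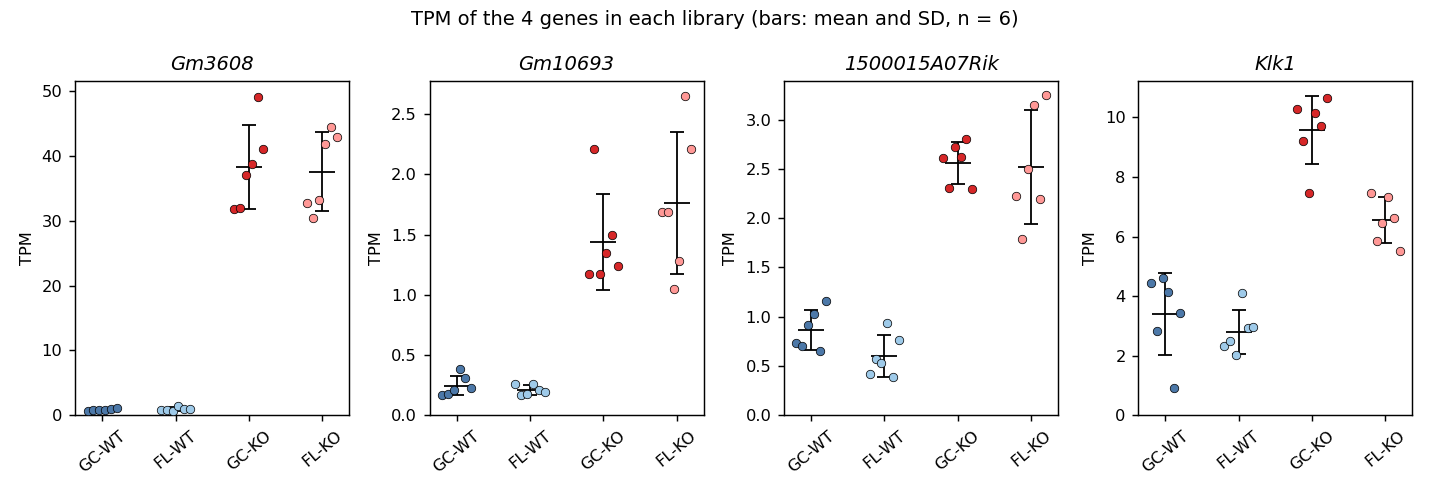
Each point is the TPM (y axis, linear, from 0) of 1 mouse, by group (x axis), with a panel for each gene and bars for the mean and SD of 6 mice. In every panel the points of both Nrf2-KO groups lie above those of both WT groups, with the widest gap for Gm3608, from 1.38 to 30.4 TPM.

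The coding gene that resembles Gm3608 was at lower values where Gm3608 was high. Capza1 was examined after its values had been seen, so it is described without a test. It lay between 55.7 and 90 TPM in GC-WT mice and between 46.09 and 93.65 TPM in FL-WT mice, against 27.99 to 40.61 TPM in GC-KO mice and 27.99 to 39.44 TPM in FL-KO mice. No Nrf2-KO mouse reached the lowest WT mouse. Its log2 fold change was -1.11 (SE 0.15) on the ground and -1.08 (SE 0.15) in flight, and it was -0.77 and -0.69 after median-of-ratios scaling.

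The sum of Gm3608 and Capza1 was close between the genotypes. It was 72.7 ± 11.1 TPM in GC-WT, 74.8 ± 19.5 TPM in FL-WT, 71.0 ± 11 TPM in GC-KO and 71.2 ± 10.9 TPM in FL-KO mice (± SD of n = 6). The log2 difference of the sum between Nrf2-KO and WT mice was -0.03 (SE 0.12) on the ground and -0.04 (SE 0.19) in flight, where the median of all tested genes was -0.22 and -0.25. Gm3608 made up 1.05% to 1.64% of the sum in the WT mice and 51.7% to 55.1% in the Nrf2-KO mice, and the ranges lay far apart. Over the 12 Nrf2-KO mice the share was 53.3% ± 1.15, while the sum was 71.1 TPM ± 10.4 (SD, n = 12). Within groups, the values of both genes moved together, with a Pearson's r of 0.81 between their deviations from the group means over 24 libraries, which share their libraries. RNA of the pseudogene and RNA of Capza1 cannot be told apart with these values.

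**Figure D2:**
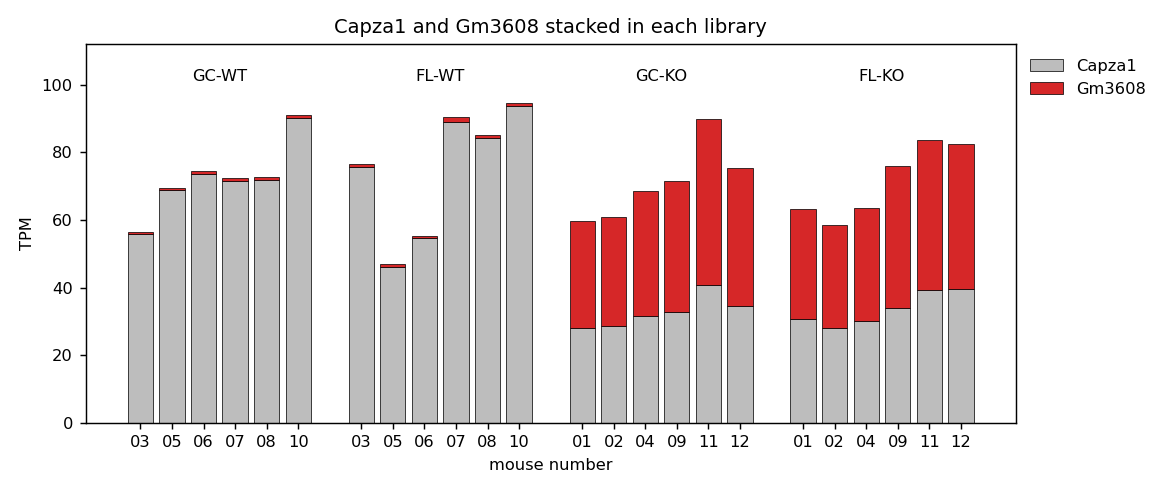
Stacked bars of TPM (y axis, linear, from 0) for Capza1 in grey and Gm3608 in red, a bar for each mouse (x axis, mouse number) in the 4 groups. The red part is 1.05% to 1.64% of the bar in WT mice and 51.7% to 55.1% in Nrf2-KO mice, while the whole bars range from 46.86 to 94.69 TPM in WT and from 58.39 to 89.72 TPM in Nrf2-KO mice.

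Other genes of the same complex and another copy of Capza1 were read beside it, also after their values had been seen. Gm5920, a shorter processed pseudogene of 853 nt on chromosome 9, was listed at 0 in all 6 GC-WT mice and in 5 of 6 FL-WT mice, and lay between 0.44 and 0.89 TPM in GC-KO and 0.19 and 0.6 TPM in FL-KO mice. Adding it left the mean of the sum at 71.6 TPM in both GC-KO and FL-KO mice. Capza2, the alpha-2 subunit, was at 40.4 ± 8.19 TPM in the 6 GC-WT mice and 47.2 ± 7.39 TPM in the 6 GC-KO mice (SD, n = 6 each). Capzb, the beta subunit, was at 88.2 ± 10.4 TPM in the 6 GC-WT mice and 69.3 ± 13.8 TPM in the 6 GC-KO mice (SD, n = 6 each), and the groups overlapped.

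Klk1 had the highest TPM of the 4 genes in WT marrow. It lay between 0.91 and 4.62 TPM in GC-WT mice, with a median of 3.79, and between 2.01 and 4.11 TPM in FL-WT mice, with a median of 2.7. In GC-KO mice it lay between 7.45 and 10.65 TPM, with a median of 9.93, and in FL-KO mice between 5.53 and 7.47 TPM, with a median of 6.53. The genotypes did not overlap on the ground or in flight, though the gap was narrow in flight, where the lowest Nrf2-KO mouse was 1.35 times the highest WT mouse. The means were 3.4 ± 1.39 TPM in GC-WT, 2.8 ± 0.738 TPM in FL-WT, 9.57 ± 1.15 TPM in GC-KO and 6.54 ± 0.771 TPM in FL-KO mice (± SD of n = 6). The log2 fold change of Nrf2-KO against WT was 1.34 (SE 0.18) on the ground and 1.0 (SE 0.18) in flight. The closest copy of Klk1, Klk1b5, aligned to the whole Klk1 transcript at an identity of 94.4% and was listed at 0 in all 24 libraries.

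1500015A07Rik (ENSMUSG00000098702.1, chr18:61726390-61735917, plus strand) was low in all groups. It lay between 0.65 and 1.16 TPM in GC-WT mice, with a median of 0.825, and between 0.39 and 0.94 TPM in FL-WT mice, with a median of 0.55. In GC-KO mice it lay between 2.3 and 2.8 TPM, with a median of 2.62, and in FL-KO mice between 1.79 and 3.25 TPM, with a median of 2.37. Again every Nrf2-KO mouse was above every WT mouse. The ratio of mean TPM was 2.96 on the ground and 4.19 in flight, and the log2 fold changes were 0.94 (SE 0.11) and 1.13 (SE 0.11). None of its 50-base words occurs in a transcript of another annotated gene read in the same direction. The opposite direction, that of the gene it overlaps, was not searched.

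This RNA overlaps Afap1l1, a gene of an actin filament-associated protein on the opposite strand, and it starts 65 bases beyond Grpel2, a co-chaperone of mitochondrial protein import that is also on the minus strand. The library kit keeps the strand, but the setting used to count is not given in the sources used here, so reads of overlapping genes may not have been separated. Afap1l1 had the opposite difference. On the ground it was at 0.788 ± 0.191 TPM in WT and 0.488 ± 0.0711 TPM in Nrf2-KO mice, and in flight at 0.678 ± 0.12 TPM in WT and 0.358 ± 0.0649 TPM in Nrf2-KO mice (SD, n = 6 each). Its log2 fold changes were -0.26 and -0.30 (SE 0.09 for both), under a fold change of 2. It passed the filter of 1 TPM only through GC-WT mouse 08, at 1.03 TPM, so this is a description and no p is given. Grpel2 was at -0.12 and -0.06 (adjusted p = 0.382 and 0.704 from limma).

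Gm10693 (ENSMUSG00000074420.5, chr7:3860681-3869170, minus strand) was the lowest of the 4 genes in WT mice. It lay between 0.17 and 0.38 TPM in GC-WT mice, with a median of 0.22, and between 0.17 and 0.26 TPM in FL-WT mice, with a median of 0.2. In GC-KO mice it lay between 1.17 and 2.21 TPM, with a median of 1.29, and in FL-KO mice between 1.05 and 2.65 TPM, with a median of 1.69. It passed the filter of 1 TPM only through Nrf2-KO mice. The ratio of mean TPM was 5.84 on the ground and 8.32 in flight, and the log2 fold changes on the log2(TPM + 1) scale were 0.96 (SE 0.12) and 1.16 (SE 0.12).

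Gm10693 lies among genes that it closely resembles. Of its 2 transcripts, the longer has 4007 nt, and 44.5% of the 50-base words of both together occur in another gene. The transcript of 2037 nt aligned at an identity of at least 90% over at least 50% of its length to 9 other genes, the closest being Gm15930 at 98.3%, which was listed at 0 in all WT and GC-KO mice. The activating receptor gene Pira2 had an identity of 95.5% and was near 10 TPM in all groups, with log2 fold changes of 0.00 and -0.04 (adjusted p = 0.995 and 0.86 from limma). Pirb, the inhibitory receptor of the family, was at 27.5 ± 2.62 TPM in the 6 GC-WT mice and 19.3 ± 2.97 TPM in the 6 GC-KO mice (SD, n = 6 each). Gm14548 was at 11.8 ± 1.59 TPM in the 6 GC-WT mice and 7.5 ± 1.16 TPM in the 6 GC-KO mice (SD, n = 6 each). Lilra6 was at 9.22 ± 1.18 TPM in the 6 GC-WT mice and 6.86 ± 0.872 TPM in the 6 GC-KO mice (SD, n = 6 each).

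The copies did not all lie to the same side. Pirb, Gm14548 and Lilra6 had log2 fold changes of -0.50, -0.60 and -0.38 on the ground, and -0.17, -0.28 and -0.07 after median-of-ratios scaling. Gm15922 was at 0.17 in both comparisons, and Gm15448 at 0.18 on the ground and 0.29 in flight (SE 0.14 and 0.13). Gm15925 and Gm15931 did not reach 1 TPM in any library, and their means were 0.0733 and 0.378 TPM in FL-WT and 0.185 and 0.412 TPM in FL-KO mice. The sum of Gm10693 and its 9 copies was 65.1 ± 6.8 TPM in GC-WT, 64.7 ± 16.5 TPM in FL-WT, 52.7 ± 8.29 TPM in GC-KO and 49.7 ± 6.44 TPM in FL-KO mice (± SD of n = 6). Gm10693 made up 0.291% to 0.555% of this sum in WT mice and 2.06% to 4.5% in Nrf2-KO mice. The log2 difference of this sum between Nrf2-KO and WT mice was -0.31 (SE 0.11) on the ground and -0.35 (SE 0.16) in flight, within 1 SE of the median of all tested genes, -0.22 and -0.25. How the authors' counting divided reads among these copies was not tested.

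Among all tested genes, those with groups that did not overlap were few in this direction. All 6 GC-KO mice were above all 6 GC-WT mice for 0.218% of tested genes, and all 6 FL-KO mice were above all 6 FL-WT mice for 0.307%. These values used the comparisons that selected the 4 genes and are given as background only. In both comparisons together, 13 genes were separated in this way, namely the 4 genes, 4 genes of chromosome 14 and Klk1b27, Lrr1, Sec61g, Rpl22 and Rps27. The last 4 had log2 fold changes of 0.28 to 0.55.

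The 4 genes were not simply the top of a ranking. By the smaller of both log2 fold changes outside chromosome 14, Gm3608 was first, Klk1 was 4th, Gm10693 was 5th and 1500015A07Rik was 6th. Gm10222 on chromosome 1 (1.48 and 1.77) and Gm19427 on chromosome 9 (1.09 and 1.04) came between them, but their groups overlapped. Just below 1500015A07Rik, 4931408C20Rik was at 1.21 and 0.93, also with overlapping groups. Genes were called where the adjusted p was under 0.1 and the fold change at least 2. Those called higher made up 0.129% of tested genes on the ground and 0.097% in flight. On the ground 16 of 392 calls were higher, and 30 of 100 after median-of-ratios scaling. On the ground Gm10693 and 1500015A07Rik lay just under a fold change of 2 on this scale, and above it with a pseudocount of 0.1, at 2.15 and 1.49.

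**Figure D3:**
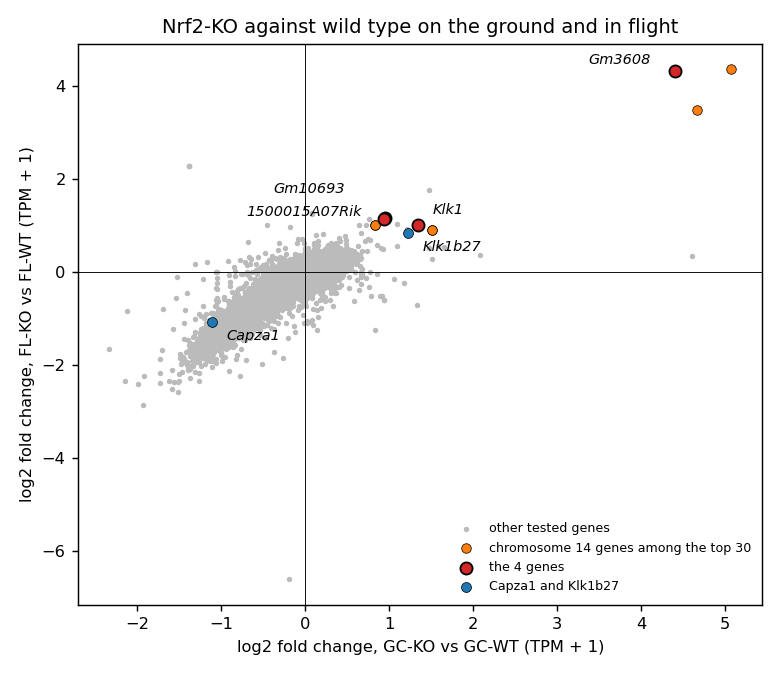
Each point is a tested gene, with the log2 fold change of GC-KO vs. GC-WT on the x axis and of FL-KO vs. FL-WT on the y axis, both of TPM + 1. Gm3608 stands with Gm16867 and Gm27177 of chromosome 14 at the upper right, the other 3 genes lie near 1 on both axes, and Capza1 lies below 0 on both.

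Flight was compared with ground within each genotype, to see whether the higher values in Nrf2-KO mice differed in the flown mice, sampled after landing. These comparisons were not the ones that selected the genes, though they use the same libraries. Gm3608 differed by 0.06 (SE 0.12, 95% interval -0.19 to 0.32, adjusted p = 0.705 from limma) in WT mice. In Nrf2-KO mice it differed by -0.03 (SE 0.12, 95% interval -0.28 to 0.23, adjusted p = 0.869 from limma). Gm10693 differed by -0.04 (95% interval -0.28 to 0.21) in WT and by 0.17 (95% interval -0.08 to 0.41) in Nrf2-KO mice. For 1500015A07Rik the differences were -0.22 (95% interval -0.45 to 0.01, adjusted p = 0.127 from limma) in WT and -0.03 (95% interval -0.26 to 0.20) in Nrf2-KO mice. All these intervals, on the log2(TPM + 1) scale, lie inside a fold change of 2 in either direction. In GC-WT mice the means were 0.85, 0.247 and 0.865 TPM, where the added 1 compresses any change. The WT intervals therefore cannot tell whether TPM itself changed by a fold of 2. With a pseudocount of 0.1 they were -0.23 to 0.46 for Gm3608 and -0.53 to 0.27 for Gm10693. The WT value of 1500015A07Rik was -0.48 (95% interval -0.85 to -0.12, adjusted p = 0.0464 from limma) with a pseudocount of 0.1, and its adjusted p from limma was 0.0384 without FL-WT mouse 07.

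Klk1 had the largest difference of the 4 genes between flight and ground at TPM as deposited, but not after median-of-ratios scaling. In Nrf2-KO mice its log2 fold change was -0.49 (SE 0.18, 95% interval -0.86 to -0.11, adjusted p = 0.036 from limma), and the exact permutation test of rank sums (two-sided) gave p = 0.00433 over 6 mice against 6, where the smallest possible p is 0.00216. The highest FL-KO mouse, at 7.47 TPM, was just above the lowest GC-KO mouse, at 7.45 TPM. In WT mice the difference was -0.15 (SE 0.18, adjusted p = 0.537 from limma, exact permutation p = 0.24). The Nrf2-KO value was under a fold change of 2 and was not called. Relative to the median of all genes it was -0.20, and it was -0.09 (adjusted p = 0.736 from limma) after median-of-ratios scaling.

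None of the 4 genes was called in limma between flight and ground in WT mice, where 1.0% of all tested genes were called, in Nrf2-KO mice, where 2.13% were, in flight vs. ground averaged over genotypes, where 1.12% were, or in the interaction of flight and genotype, where 0.0162% were. At an unadjusted p under 0.05 in limma there were 0, 1, 1 and 0 of the 4 genes in these comparisons, Klk1 both times. Of all tested genes, 42.8%, 52.5%, 64.8% and 3.46% were under it, in the same order. The interaction was -0.09 for Gm3608, 0.21 for Gm10693, 0.19 for 1500015A07Rik and -0.34 for Klk1 (SE 0.17, 0.17, 0.16 and 0.26, adjusted p = 1.0 for each from limma). In all, 8 exact permutation tests were run on the 4 genes, and that of Klk1 in Nrf2-KO mice had the smallest p.

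The scaling between libraries bore on these flight differences. With median-of-ratios scaling, the flight difference of Gm3608 was 0.22 in WT and 0.41 in Nrf2-KO mice (SE 0.06 for both, adjusted p = 0.00857 and 4.7e-05 from limma), against 0.06 and -0.03 at TPM as deposited. Capza1 was likewise at 0.39 and 0.48 there. In Nrf2-KO mice under this scaling, Gm10693 was at 0.45 and 1500015A07Rik at 0.30 (SE 0.11 and 0.10, adjusted p = 0.00448 and 0.0223 from limma). None of these reached a fold change of 2.

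**Figure D4:**
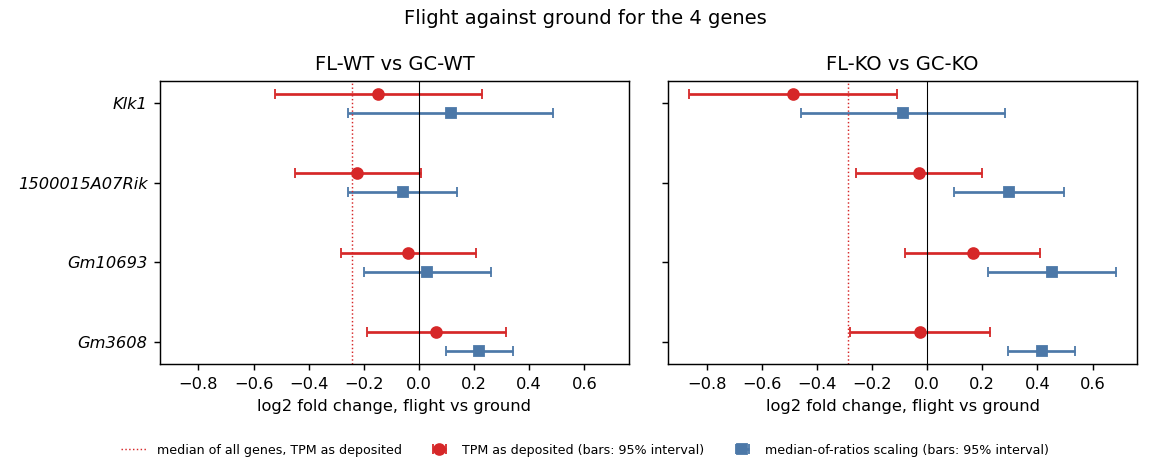
Log2 fold changes of flight vs. ground (x axis) of the 4 genes (y axis) in WT mice on the left and Nrf2-KO mice on the right, at TPM as deposited (circles) and with median-of-ratios scaling (squares), with 95% intervals and the median of all genes dotted. Klk1 in Nrf2-KO mice is at -0.49 as deposited and -0.09 scaled, and Gm3608 moves from -0.03 to 0.41.

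The genes around each of the 4 were compared by genotype, to see whether the higher values extended to their neighbourhood. Within 500 kb, 43 neighbours were tested, and the 4 genes themselves were left out. On the ground 1 neighbour was called higher and 3 lower, which is 4 of 43 where 3.17% of all tested genes were called. In flight 0 were called higher and 7 lower, where 8.45% of all tested genes were called. With limma, 24 of the 43 neighbours were under an unadjusted p of 0.05 in each comparison, where 46.7% of all tested genes were on the ground and 49.2% in flight. The median log2 fold change of the neighbours was -0.23 and -0.30, beside -0.22 and -0.25 for all tested genes. The ground count was 2 without GC-KO mouse 04. After median-of-ratios scaling it was 1, Klk1b27, and the flight count was 5, Klk1b27 higher and Cnot3, Mboat7, Spib and Pold1 lower.

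Gm3608 stood alone. It had 3 tested neighbours, all on 1 side, and none was called or under an unadjusted p of 0.05 in limma. The nearest, Pign, a transferase of GPI anchor synthesis at 59.6 kb, was at -0.02 on the ground and 0.03 in flight (adjusted p = 0.947 and 0.881 from limma). Around Gm10693, 2 of 21 neighbours were called lower in both comparisons, Cnot3, a subunit of the CCR4-NOT complex that shortens poly(A) tails, and Mboat7, an acyltransferase of phosphatidylinositol. Cnot3 was at -1.05 and -1.35 (adjusted p = 0.000416 and 4.03e-06 from limma), and Mboat7 at -1.09 and -1.61 (adjusted p = 0.000491 and 1.85e-06 from limma). Its nearest tested neighbours were Pira2 at 15.6 kb and Gm14548 at 15.1 kb, neither of them called. Around 1500015A07Rik 0 of 9 neighbours were called in limma, with 5 at an unadjusted p under 0.05 in each comparison. The median log2 fold change of the 9 was -0.21 and -0.30. Beyond Grpel2, Pcyox1l at 18.8 kb was at -0.72 and -0.73 (adjusted p = 0.000626 and 0.000182 from limma). On the other side, the nearest that did not overlap was Sh3tc2 at 217.2 kb, at -0.18 and -0.32.

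The neighbourhood of Klk1 held genes that differed in both directions. Klk1b27, its nearest tested neighbour on 1 side at 168.6 kb, was the only neighbour of any of the 4 genes called higher. On the other side, 2410002F23Rik at 17.1 kb was at -0.12 and -0.17 (adjusted p = 0.439 and 0.279 from limma). Farther off, Spib, a transcription factor of B cells and plasmacytoid dendritic cells at 296.4 kb, was called lower on the ground at -1.32 and in flight at -1.38 (adjusted p = 0.000396 and 1.77e-05 from limma). Pold1, the catalytic subunit of DNA polymerase delta, Emc10 of the ER membrane complex, Nr1h2, the oxysterol receptor LXR-beta, and Napsa, an aspartic protease, were called lower in flight, at -1.55, -1.19, -1.21 and -1.12. In the same order they were at -0.93, -0.66, -0.65 and -0.80 on the ground, where they were not called.

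**Figure D5:**
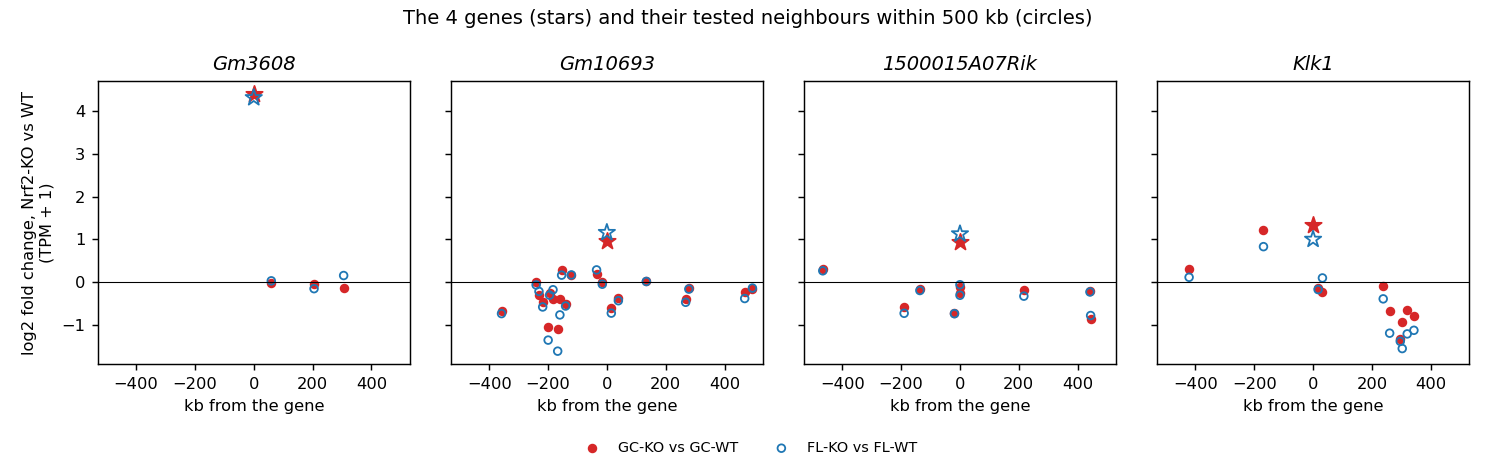
Log2 fold changes of Nrf2-KO vs. WT (y axis, TPM + 1) of the 4 genes (stars) and of each tested gene within 500 kb (circles) by distance in kb (x axis), filled for the ground and open for flight. Klk1b27 at 168.6 kb from Klk1 is the only neighbour near its star, and Cnot3 and Mboat7 near Gm10693 and 5 genes beyond 250 kb from Klk1 lie at or below -1 in flight.

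The kallikreins were read as a family, from a list of 25 genes beside Klk1. Of these, 23 did not reach 1 TPM in any library and 22 did not reach 0.1 TPM, so the kallikrein signal of the marrow came mostly from Klk1, Klk1b27 and Klk8. Klk4 reached at most 0.25 TPM, with means of 0 in both WT groups, 0.117 TPM in GC-KO and 0.095 TPM in FL-KO mice. Klk1b27 lay between 0.18 and 0.76 TPM in GC-WT and between 1.81 and 2.6 TPM in GC-KO mice, and its log2 fold change was 1.23 (SE 0.10). In flight it lay between 0.36 and 0.62 TPM in FL-WT and between 1.37 and 2.02 TPM in FL-KO mice. Its log2 fold change was 0.83 (SE 0.10), short of a fold change of 2 on the log2(TPM + 1) scale. It passed the filter of 1 TPM only through Nrf2-KO mice, so its call on the ground, which is also the only kallikrein call and the only neighbour called higher, is a description and no p is given. No Nrf2-KO mouse overlapped a WT mouse in either. Klk8, a protease known from brain and skin, was at 1.18 ± 0.213 TPM in the 6 GC-WT mice and 1.71 ± 0.0697 TPM in the 6 GC-KO mice (SD, n = 6 each), with log2 fold changes of 0.32 and 0.12 (adjusted p = 0.0197 and 0.413 from limma). After median-of-ratios scaling they were 0.49 and 0.39 (adjusted p = 0.000475 and 0.00116 from limma), and it was not called in either.

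Like Klk1, Klk1b27 was at lower TPM in FL-KO than in GC-KO mice, by -0.33 (SE 0.10, adjusted p = 0.0143 from limma, exact permutation p = 0.0152), and it was at 0.07 in WT mice. Its interaction of flight and genotype was -0.40 (SE 0.14, adjusted p = 1.0 from limma). With median-of-ratios scaling its flight difference in Nrf2-KO mice was -0.03, and it was then called higher in Nrf2-KO mice in both genotype comparisons.

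Kinin genes were mostly low. Of 12 genes of kininogens, kinin receptors, plasma kallikrein and kinin-degrading peptidases, 9 did not reach 1 TPM in any library, and 6 of them did not reach 0.1 TPM. The receptor genes Bdkrb1 and Bdkrb2 were listed at 0 in every library, and the kininogen genes Kng1 and Kng2, the substrates, were detected at up to 0.42 and 0.77 TPM. The 3 genes that were tested all encode peptidases that trim or degrade kinins. Ace was at 1.32 ± 0.55 TPM in the 6 GC-WT mice and 0.682 ± 0.339 TPM in the 6 GC-KO mice (SD, n = 6 each), and its log2 fold changes were -0.45 and -0.82 (adjusted p = 0.0531 and 0.000664 from limma). Cpm was at -0.72 and -0.30 (adjusted p = 0.000478 and 0.082), and Xpnpep1 at -0.45 and -0.93 (adjusted p = 0.0243 and 2.99e-05, all from limma). None reached a fold change of 2 on the log2(TPM + 1) scale, which compresses changes at such levels. The larger difference in mean TPM was 1.36 in FL-WT vs. 0.277 in FL-KO mice for Ace. For Xpnpep1 it was 7.3 vs. 3.33 TPM in the same groups, and for Cpm 2.66 in GC-WT vs. 1.22 in GC-KO mice. After median-of-ratios scaling, Ace and Xpnpep1 were at -0.28 and -0.15 on the ground (adjusted p = 0.167 and 0.165 from limma) and Cpm was at -0.11 in flight (adjusted p = 0.304 from limma). Over the 5 tested kallikrein and kinin genes beside Klk1, 1 was called on the ground and 0 in flight in limma, with 5 and 4 at an unadjusted p under 0.05, a median of -0.45 and -0.30, and the calls of all genes given above as background. The flight count became 1 when FL-WT mouse 05 was left out, and also when FL-KO mouse 09 was.

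With the 4 genes themselves left out, the genes with patterns most like each of them were the same 3 each time. Among the 4, Gm3608 had a Pearson's r of 0.945 with Gm10693 and 0.954 with 1500015A07Rik. Over 24 libraries, Gm16867 had a Pearson's r of 0.99 with Gm3608, 0.93 with Gm10693, 0.94 with 1500015A07Rik and 0.88 with Klk1. Gm27177 had 0.97, 0.91, 0.93 and 0.88 in the same order, and Klk1b27 had 0.94, 0.86, 0.91 and 0.88. These correlations follow from the difference between genotypes, which all these genes share by selection. For deviations from the group means, the r with Gm16867 ranged from 0.04 to 0.21 and that with Klk1b27 from -0.05 to 0.26. Gm27177 had 0.53 with Gm3608 and 0.03 with Klk1. Among the 4 genes themselves, the r of these deviations was highest between Gm3608 and 1500015A07Rik, at 0.53, and lay between -0.10 and 0.34 for the other pairs. These values share the depth and composition of the same libraries.

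Summed marker levels of several marrow cell types also lay at different medians in the genotypes. The marker lists of erythroid, neutrophil, promyelocyte, B lineage, plasma, monocyte and macrophage, megakaryocyte, T and NK, mast cell and basophil, and stromal cells were all detected, except that Bglap of bone did not exceed 1 TPM. On the ground the ranges of these sums overlapped, except for the B lineage. The 5 B lineage markers summed to 146 to 211 TPM in GC-WT and 93.6 to 144 TPM in GC-KO mice. In flight they overlapped, at 74.7 to 185 TPM in FL-WT and 57.7 to 96.4 TPM in FL-KO mice. The 4 promyelocyte markers summed to 571 to 958 TPM in GC-WT and 338 to 761 TPM in GC-KO mice, the 4 monocyte and macrophage markers to 44.1 to 84.9 and 33.2 to 57.3 TPM, and the 4 mast cell and basophil markers to 94.7 to 137 and 58.9 to 103 TPM. In flight the promyelocyte, monocyte and macrophage, and mast cell and basophil sums were lower in every Nrf2-KO than in every WT mouse. They were 500 to 1160 TPM in FL-WT and 299 to 438 TPM in FL-KO mice for promyelocytes, 38.1 to 84.0 and 21.8 to 32.1 TPM for monocytes and macrophages, and 93.1 to 158 and 59.7 to 92.7 TPM for mast cells and basophils. The 5 erythroid markers summed to 50700 to 121000 TPM in GC-WT and 99200 to 148000 TPM in GC-KO mice, and to 88000 to 121000 TPM in FL-WT and 93600 to 136000 TPM in FL-KO mice. The part of these differences in the values of the 4 genes was not tested.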

How the data were processed

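RNA-seq of bone marrow covered 24 mice in 4 groups of 6, taken from the sample labels. Per the submitters' processing notes the authors used STAR (2.6.1), RSEM (1.3.1) and mm10 (GRCm38), and the deposited table holds TPM without counts. Their gene annotation is not given in the sources used here, and 54723 of 54752 gene IDs matched GENCODE M21. RSEM divides reads among similar genes by estimate, which bears on Gm3608 and Gm10693, and on Klk1 with a smaller share of common words.

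After a filter of TPM above 1 in at least 1 library, log2(TPM + 1) was fitted by limma (3.58.1, R 4.3.3) with 1 mean for each of the groups. Adjusted p-values (Benjamini-Hochberg) cover 12373 genes. Permutation tests used scipy 1.17.1 and alignments BLAST+ 2.17.0. On simulated data, 199 of 200 genes changed by 2 on the log2 scale were recovered in flight vs. ground averaged over genotypes, with 1 unchanged gene called. The changed genes were drawn only from those above a minimum mean level. The change was also larger than any flight difference given for the 4 genes. The recovery thus does not cover smaller changes or genes at the lowest levels.

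The 4 genes and all lists were chosen with earlier results of these data known. The rule for named genes took the 4 genes, Nfe2l2, and the nearest and the called neighbours. It also took the 3 genes outside the 4 that were most correlated with each. Kallikrein and kinin genes past the filter and genes called higher in both genotype comparisons were taken as well. Near-identical copies, Capza2, Capzb, Gm5920, Pcyox1l and genes named from rankings were added after their values were seen. Alternatives were a pseudocount of 0.1, no filter, TPM above 1 in 6 libraries, median-of-ratios scaling, a mean-expression trend, no minimum fold change, a 2 Mb window, a replicate block by mouse number, and leaving out each library.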

Additional observations from a re-analysis of the deposited data

Results flagged for a closer look

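Gm10693 was at 2.21 TPM in GC-KO mouse 02, above the other 5 mice of the group at 1.17 to 1.5 TPM. The gap to the nearest mouse was 0.683 of the range of the group, past Dixon's critical value for 6 samples. The copies of Gm10693 make the value uncertain, and no cause was tested. Without this mouse, every Nrf2-KO mouse still lay above every WT mouse.

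Klk1b27 was at 1.81 TPM in GC-KO mouse 12, below the other 5 mice at 2.38 to 2.6 TPM, with a gap of 0.722 of the range. In all, 24 groups of 6 were examined for such samples (the 4 genes, Capza1 and Klk1b27 in 4 groups), and chance flags about 5% of groups.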

How the results depend on the processing

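All 4 genes kept every Nrf2-KO mouse above every WT mouse of the same condition under median-of-ratios scaling, a pseudocount of 0.1 and with each library left out (4 to 4 genes). With no minimum fold change, 1 of the 4, Klk1, passed in FL-KO vs. GC-KO and 1, again Klk1, in flight vs. ground averaged over genotypes. A large part of all tested genes was at a low p there, with 52.5% and 64.8% under an unadjusted p of 0.05 in limma. The count of the 4 genes called in flight was 0 in all 4 comparisons with each library left out (0 to 0) and under the other settings, including the fit with the mouse number as a replicate block (0 in each). Each mouse number occurs in both conditions, but deviations from the group means of same-numbered mice correlated above 0.1 in 4 of 6 WT and 3 of 6 Nrf2-KO pairs only, so they were not taken as pairs. Neighbours called in GC-KO vs. GC-WT numbered 4, and 8 with a pseudocount of 0.1, 1 with median-of-ratios scaling, 24 with no minimum fold change, 15 within 2 Mb, and 2 to 5 with a library left out. In FL-KO vs. FL-WT they numbered 7, and 11 with a pseudocount of 0.1, 24 with no minimum fold change, 36 within 2 Mb and 7 to 7 with a library left out. The kallikrein and kinin genes called numbered 1 on the ground, and 2 with a pseudocount of 0.1, 5 with no minimum fold change and 1 to 1 with a library left out. In flight they numbered 0, and 3 with a pseudocount of 0.1, 1 with median-of-ratios scaling, 4 with no minimum fold change and 0 to 1 with a library left out. The wider window and the dropped minimum fold change raise these counts by construction, and the cause of the other shifts was not tested. With a pseudocount of 0.1 the log2 fold changes of Nrf2-KO against WT were larger, at 5.34 and 5.2 for Gm3608, 2.15 and 2.53 for Gm10693, 1.49 and 1.92 for 1500015A07Rik, and 1.61 and 1.22 for Klk1. Median-of-ratios scaling changed the number of all genes called from 124 to 37 in FL-WT vs. GC-WT, 264 to 30 in FL-KO vs. GC-KO, 139 to 21 in flight averaged, 2 to 3 in the interaction, 392 to 100 in GC-KO vs. GC-WT and 1046 to 450 in FL-KO vs. FL-WT. Of these, 16 of 392 and 30 of 100 were higher in GC-KO mice. The depth of the libraries is unknown, so the precision of values near 1 TPM cannot be given.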
